A study of Mus musculus with 6 samples.

Results

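Choroid plexus genes were followed in the cortex of microglia-depleted and control mice. The genes are 10 markers of choroid plexus epithelium (Ttr, Folr1, Kl, Prlr, Aqp1, Kcnj13, Clic6, Sostdc1, Enpp2 and Otx2), 10 of the 23366 genes in the table, and they were chosen from the same contrast, since each was lower in depleted mice in an earlier look. Their values are therefore a description, with no test. All 10 passed the filter of the test across genes, which asks for a 6-mouse mean no lower than 0.5 FPKM, and the lowest was 0.692 FPKM, of Aqp1. In depleted mice alone the mean of Aqp1 was 0.347 FPKM, below that limit. FPKM is the number of sequenced fragments per kilobase of transcript, scaled to the total of the library, so that levels of different genes can be set side by side.

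RNA of the cortex was sequenced from 3 control mice (A1, A2 and A3) and from 3 depleted mice (A4, A5 and A6), 1 library per mouse, on a C57BL/6 background; the labels give day 10 after depletion for depleted mice and no day for control mice. Depleted mice carried 1 copy each of CX3CR1-CreERT2, a recombinase that tamoxifen switches on in cells that use the CX3CR1 promoter, and of iDTR, a diphtheria toxin receptor that the recombinase releases. Control mice were littermates with CX3CR1-CreERT2 and without iDTR, and the paper's methods describe mice of both genotypes as matched for age and sex. Tamoxifen went to mice of both genotypes, depletion was by diphtheria toxin, and whether control mice also received the toxin is not stated in the sources used here. The mice were adult, and their age in weeks is not given there. The paper describes microglia at day 10 as repopulated after the loss, so depleted mice were not without microglia. The CX3CR1 promoter is active in microglia and also in other macrophages, among them those of the choroid plexus and the meninges.

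Choroid plexus is a folded sheet of epithelium that hangs in the ventricles of the brain and secretes the cerebrospinal fluid. Its cells carry ions and water from blood to fluid, move vitamins and hormones across, and release carrier proteins and growth factors. It is not part of the cortex. In a tissue sample, fewer cells of a type and less RNA per cell cannot be told apart.

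The libraries were not equally deep. Low FPKM values come in steps, each the value of a single fragment, and the step size gave estimates of 14.6 M fragments in A1, 20.5 M in A2 and 18.3 M in A3. In depleted mice the estimates were 13.7 M in A4, 3.56 M in A5 and 11.2 M in A6, so that the deepest library had 5.76 times the fragments of the shallowest, A5. The authors describe a much deeper read coverage than the estimate for A5, and the reason for that gap was not tested. In A5, 84.1% of the low values lay within 0.15 of a whole step and 5.8% within 0.15 of the middle between steps, where a depth 2 times as high would also put values. At such a depth the limits given below for A5 would be 0.5 times as high, under the control values of Cox8b and Krt8. For a transcript of 1 kb, 1 fragment is worth 0.281 FPKM in A5 and 0.049 FPKM in A2. A5 also had the most genes listed at 0, with 7144 against 5834 in A1.

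Apart from depth, 2 libraries stood apart in single genes. Control mouse A3 had 3549 FPKM of Prl, 1191 FPKM of Gh and 269 FPKM of Pomc, genes of pituitary hormones, against at most 30.9, 10.8 and 9.42 FPKM in the other mice. Xist, which is expressed from the inactive X chromosome of females, was at 4.74 FPKM in A3 and from 30.9 to 46.7 FPKM in the other 5 mice. The Y-linked genes Ddx3y, Eif2s3y, Kdm5d and Uty summed to 5.56 FPKM in depleted mouse A4, which also expressed Xist, and to at most 0.16 FPKM elsewhere. The labels give no sex, and how these values relate to the stated matching for sex was not tested. Gh was chosen after its values were seen. For the 10 genes, fold changes are given with and without A3 and A4, a setting that was added after the data were seen, and their median also without A5.

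All 10 genes had a lower mean in depleted than in control mice, with a median log2 fold change of -0.42 on the scale of log2(FPKM + 1), which understates differences of low genes. Of all 14385 genes tested, 52% had a lower mean in depleted mice, and the median log2 fold change was -0.0085. In 3 of the 10 genes (Ttr, Prlr and Aqp1) every depleted mouse lay below every control mouse, against 9.38% of all genes tested with such a separation. Because the choice of genes used this contrast, nothing is read from these counts. With A3 and A4 left out the median was -0.53 and the groups did not overlap in 8 of 10 genes (21.1% of all genes tested), and without A5 it was -0.41 with 5 of 10 (16.7%). Leaving out A3 alone also gave 8 of 10 (13% of all genes tested), since A3 was the lowest control mouse in 6 of the genes.

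**Figure D1:**
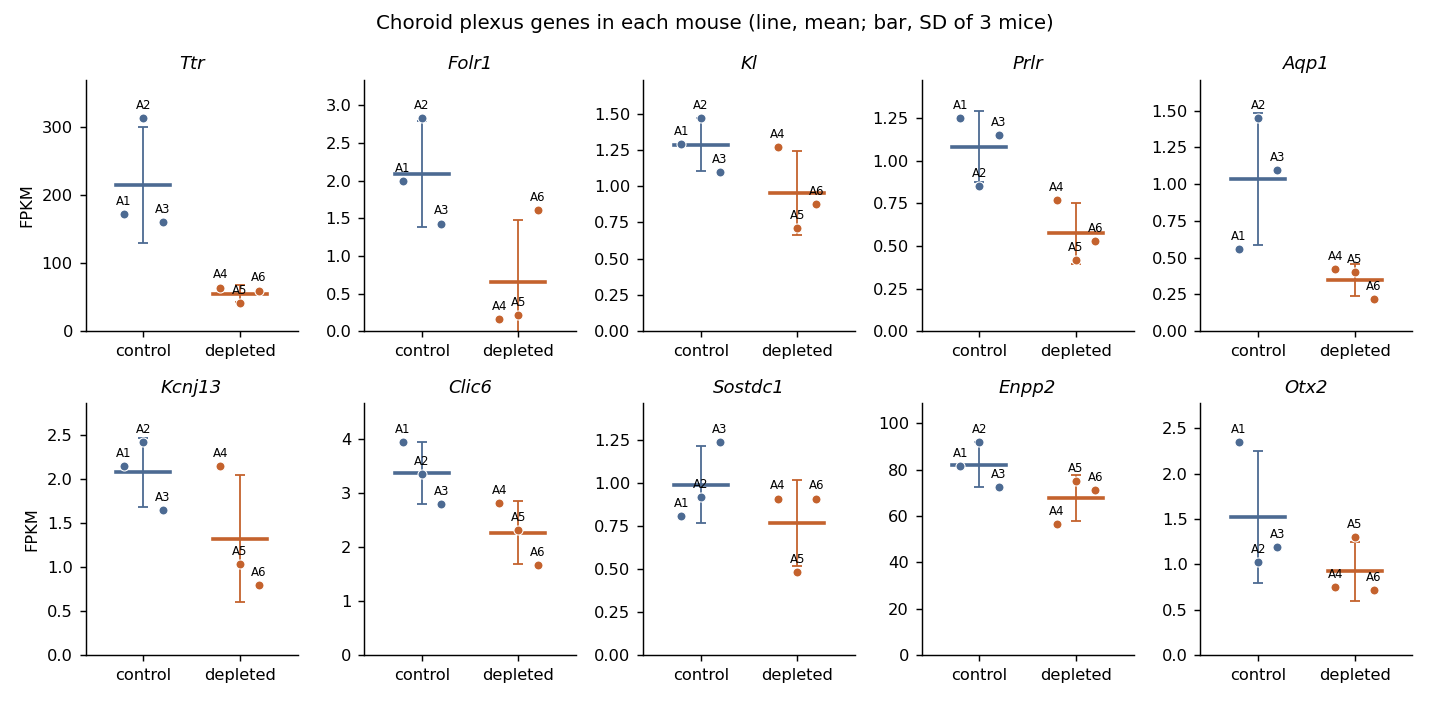
FPKM of the 10 choroid plexus genes in each mouse, with 1 panel per gene, the vertical axis in FPKM from 0, 1 point per mouse, a line for the group mean and a bar for the SD of 3 mice. Ttr runs from 160 to 314 FPKM in control and from 40.9 to 64.3 FPKM in depleted mice, while in Kl, Sostdc1 and Otx2 points of the groups lie among each other.

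Ttr codes for transthyretin, which carries thyroid hormone and, bound to retinol-binding protein, vitamin A, and is the most abundant secreted protein of this epithelium. It was at 173 FPKM in A1, 314 FPKM in A2 and 160 FPKM in A3, and at 64.3 FPKM in A4, 40.9 FPKM in A5 and 59.9 FPKM in A6. Every depleted mouse lay below every control mouse, and the highest depleted mouse had less than 50% of the lowest control mouse. The log2 fold change was -1.91, with means of 215.5 ± 85.3 FPKM (SD, n = 3) and 55.0 ± 12.4 FPKM (SD, n = 3). It ran from -2.09 to -1.60 with 1 mouse left out, and was -2.21 without A3 and A4. At the estimated depths and a transcript of 1186 bases, the values of Ttr rest on about 173 fragments in A5 and 7626 in A2, so that Ttr is far from the limit of detection in every mouse.

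Folr1 codes for folate receptor alpha, by which the epithelium takes folate from blood into the fluid. Its values were 1.99, 2.83 and 1.43 FPKM in A1 to A3, and 0.16, 0.21 and 1.61 FPKM in A4 to A6. A4 and A5 were far below the control mice, whereas A6 lay within their range, so that the groups overlapped. The 0.21 FPKM of A5 amounts to about 1 fragment on a transcript of 1313 bases, and the 0.16 FPKM of A4 to about 2.9. The log2 fold change was -0.98 (from -1.36 to -0.77 with 1 mouse left out), and the lowest value of that range came without A6.

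The hormone receptors were expressed at lower levels. Kl codes for klotho, a co-receptor for the hormone FGF23 that is also shed into the fluid, and was at 1.29, 1.47 and 1.10 FPKM in control and at 1.27, 0.71 and 0.88 FPKM in depleted mice (A4, A5 and A6). A4 stood among the control mice and the other depleted mice below them, and the log2 fold change was -0.23 (from -0.35 to -0.14 with 1 mouse left out), or -0.41 without A3 and A4. Prlr, the receptor of prolactin and placental lactogens, was at 1.25, 0.85 and 1.15 FPKM in A1 to A3, and at 0.77, 0.42 and 0.53 FPKM in A4 to A6. Here no depleted mouse reached a control mouse, although A2 and A4 were only 0.08 FPKM apart, and the log2 fold change was -0.41. In A3, the mouse with 3549 FPKM of Prl, its receptor was at 1.15 FPKM, between A1 and A2.

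Among the genes of ion and water transport, Aqp1, the water channel of the side of the cell that faces the fluid, was at 0.56, 1.45 and 1.10 FPKM in control and at 0.42, 0.40 and 0.22 FPKM in depleted mice. The groups did not overlap, but A1 was nearer to A4 than to the other control mice. On a transcript of 2627 bases the value of A5 comes to about 3.7 fragments and that of A6 to about 6.5. Kcnj13, the potassium channel Kir7.1 of the same side of the cell, was at 2.15, 2.42 and 1.65 FPKM in A1 to A3, and at 2.14, 1.03 and 0.79 FPKM in A4 to A6. A4 was again at the control level, and the log2 fold change of -0.44 (from -0.68 to -0.28 with 1 mouse left out) was -0.78 with A3 and A4 left out, the furthest that this setting moved any gene of transport. Clic6, of the chloride intracellular channel family, was at 3.94, 3.34 and 2.79 FPKM in control and at 2.81, 2.31 and 1.66 FPKM in depleted mice. Only A3 and A4 overlapped, by 0.02 FPKM, and the log2 fold change was -0.43. That of Aqp1 was -0.58.

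Sostdc1 and Enpp2 stand for secreted proteins. Sostdc1 codes for a secreted inhibitor of BMP and WNT signals. It was at 0.81, 0.92 and 1.24 FPKM in A1 to A3, and at 0.91, 0.48 and 0.91 FPKM in A4 to A6. A4 and A6 were above A1, and the log2 fold change of -0.18 was -0.05 without A5, in which the value rests on about 3 fragments. Enpp2 codes for autotaxin, a secreted enzyme that makes lysophosphatidic acid, and is also a gene of oligodendrocytes. Its values were 81.6, 92 and 72.7 FPKM in control and 56.3, 75.2 and 71.3 FPKM in depleted mice, with A5 above A3, and the log2 fold change was -0.28 (from -0.36 to -0.16 with 1 mouse left out, the smallest difference without A4).

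Otx2, a homeobox transcription factor that choroid plexus needs to form and to keep its identity, was at 2.35, 1.02 and 1.19 FPKM in A1 to A3. In A4, A5 and A6 it was at 0.75, 1.30 and 0.72 FPKM. A5 lay above A2 and A3, and A1 was far above all other mice, so that the log2 fold change of -0.37 was -0.14 without A1. Proteins of the Otx family bind the letters TAATCC, and these were searched on both strands in the 250 bases before the start sites listed by RefSeq (build GRCm38.p6). Of the 10 genes, 5 had an entry (Kl, Prlr, Aqp1, Kcnj13 and Otx2) with 10 start sites, and Ttr, Folr1, Clic6, Sostdc1 and Enpp2 had none. The letters occurred before 1 of the 10 start sites, at Otx2, and before 6.25% of all 32851 start sites. Of the other choroid plexus genes described further on, 39 of 41 had an entry and 5 of their 53 start sites held the letters (9.43%, at Car14, Abca4, Pla2g5, Mfrp and Ace, named after the search). Counted by gene, that is 12.8% against 7.21% of all 27025 genes with an entry, but a gene with more start sites has more windows to match. A match is a description of the sequence, and not a site at which binding was measured.

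3 of these windows are printed 5′ to 3′ in the direction of the gene, with TAATCC or its reverse complement in capitals: those of Aqp1 and Kcnj13, channels of the side of the cell that faces the fluid, in which the letters do not occur, and that of a start site of Pla2g5, a gene of the further list whose groups did not overlap, in which they occur. They lie at chr6:55336049-55336298 (plus strand), chr1:87394730-87394979 (minus strand) and chr4:138819258-138819507 (minus strand) in GRCm38.p6, and none of the 3 overlaps an exon of GENCODE M21. The match in Pla2g5 begins 108 bases before the start site, and the window of its other start site holds none.
Aqp1: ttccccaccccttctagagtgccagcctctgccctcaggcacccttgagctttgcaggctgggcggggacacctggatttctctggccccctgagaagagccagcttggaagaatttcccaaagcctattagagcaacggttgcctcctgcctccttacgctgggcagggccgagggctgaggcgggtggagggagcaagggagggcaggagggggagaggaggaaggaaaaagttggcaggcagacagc
Kcnj13: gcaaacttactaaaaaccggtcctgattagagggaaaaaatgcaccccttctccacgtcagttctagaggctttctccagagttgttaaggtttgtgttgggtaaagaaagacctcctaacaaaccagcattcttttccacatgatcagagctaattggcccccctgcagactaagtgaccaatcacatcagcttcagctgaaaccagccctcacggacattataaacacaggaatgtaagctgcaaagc
Pla2g5: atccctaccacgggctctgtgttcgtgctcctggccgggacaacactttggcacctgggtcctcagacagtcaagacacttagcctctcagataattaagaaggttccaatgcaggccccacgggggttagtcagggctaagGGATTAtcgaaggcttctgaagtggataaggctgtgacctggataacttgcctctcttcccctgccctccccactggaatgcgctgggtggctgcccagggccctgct

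Without A3 and A4 the log2 fold change was -0.93 for Folr1, -0.47 for Prlr, -0.58 for Aqp1 and -0.64 for Clic6, and it was -0.15 for Sostdc1, -0.24 for Enpp2 and -0.39 for Otx2.

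By the listed values, the 10 genes did not move in step among the mice. Many of these values rest on few fragments, in A5 about 1 for Folr1, 3 for Sostdc1, 3.7 for Aqp1 and 4.7 for Kcnj13. For such genes the order of mice within a group can come from counting alone. Set against its own control mean, Ttr was at 29.8%, 19% and 27.8% in A4 to A6, a narrow span. Folr1, in contrast, was at 7.68% and 10.1% in A4 and A5 and at 77.3% in A6. Otx2 and Enpp2 were highest in A5 among depleted mice, at 85.5% and 91.6%, whereas A5 had the lowest value of 4 genes (Ttr, Kl, Prlr and Sostdc1). Depleted mice had medians over the 10 genes of 69.8% (A4), 49.1% (A5) and 49.2% (A6), and A4 was the highest depleted mouse in 7 of the genes, in Sostdc1 level with A6. Control mice had medians of 99.8%, 113% and 84.3% in A1 to A3. Below every control mouse were 6 of the 10 genes in A4 (38% of all genes tested), 8 in A5 (32.7%) and 8 in A6 (33.6%), counts from which nothing is read, as the genes were chosen for being lower.

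**Figure D2:**
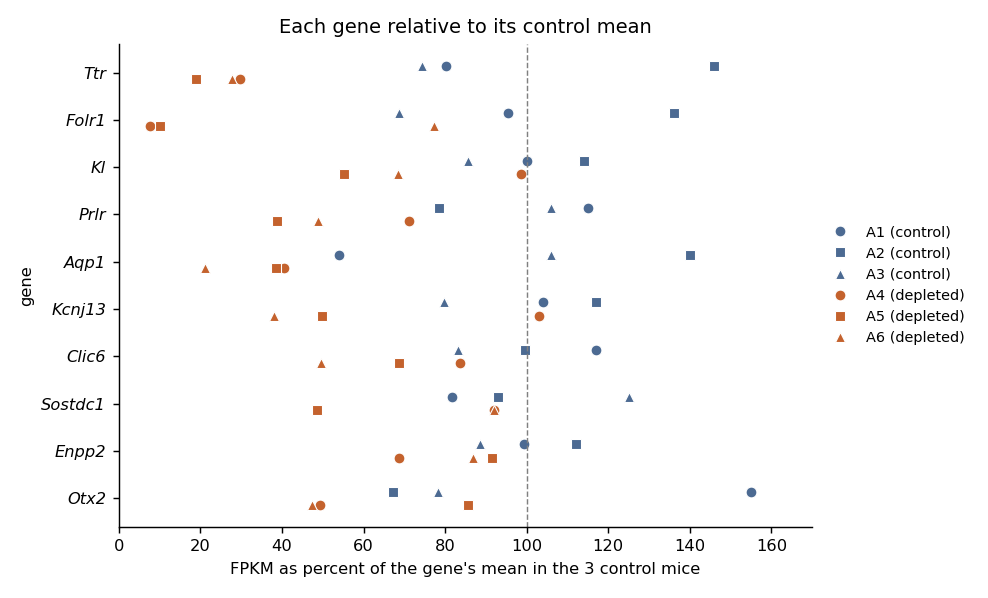
FPKM of each gene in each mouse as a percent of its mean in the 3 control mice (horizontal axis), with 1 row per gene and control mice (blue) above depleted mice (orange). Ttr in depleted mice lies between 19% and 29.8%, and Folr1 spreads from 7.68% to 77.3%.

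Levels spanned a wide range, from Ttr and Enpp2 down to Aqp1. Summed over the 10 genes, FPKM was 269, 420 and 244 in A1 to A3 and 130, 123 and 139 in A4 to A6, and no depleted mouse reached a control mouse. Ttr made up 64.3%, 74.7% and 65.5% of the sum in control mice and 49.5%, 33.3% and 43.2% in depleted mice. Without Ttr and Enpp2 the remaining 8 genes summed to 14.3, 14.3 and 11.7 FPKM in A1 to A3, and to 9.23, 6.86 and 7.32 FPKM in A4 to A6. The sum of these 8 genes thus had a smaller relative difference than Ttr, and its groups did not overlap either.

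The ratio of each gene to Ttr within a mouse restates the same values. Ttr had the lowest log2 fold change of these genes, which by itself raises ratios to it in depleted mice. The share of all genes with such ratios was not computed, and nothing is read from their direction or lack of overlap. Clic6 was at 2.28%, 1.06% and 1.74% of the FPKM of Ttr in control and at 4.37%, 5.65% and 2.77% in depleted mice. Kl was at 0.747%, 0.469% and 0.687% in control and at 1.98%, 1.74% and 1.47% in depleted mice, and neither ratio overlapped. For Folr1 the ratios were 1.15%, 0.902% and 0.893% in control and 0.249%, 0.513% and 2.69% in A4 to A6, on each side of the control range. Averaged over 3 mice, each of the other 9 genes had a higher ratio to Ttr in depleted than in control mice. For Folr1 the higher average came from A6 alone, and in A4 and A5 its ratio was below that of every control mouse.

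Other genes of choroid plexus, 41 in all, were listed for transport, secreted proteins, receptors, junctions and transcription factors. They were not used to choose the 10 genes, but the list was written with an earlier result on choroid plexus genes known. Of the 41 genes, 28 passed the filter, and 22 of these had a lower mean in depleted mice, with a median log2 fold change of -0.20. None had an adjusted p under 0.1 in limma, the test across all 14385 genes with Benjamini-Hochberg adjustment, which 4 genes passed (0.0278%). At an unadjusted p under 0.05, 7 of the 28 were lower, against 5.74% of all genes tested, and 0 were higher, against 4.79%. As listed, the groups did not overlap in 8 of the 28 with lower values in depleted mice, against 9.38% of all genes tested. With higher values they did not overlap in 1, Wfikkn2, against 8.21%. Both the 7 and the 8 include Cox8b and Krt18. These had depleted means of 0.297 and 0.307 FPKM and passed the filter only through their control values. The 0 of Cox8b in A5 does not place that mouse below the control mice, as described further on. With A3 and A4 left out the median was -0.25 and 6 of 28 were lower at an unadjusted p under 0.05 (4.81% of all genes tested). Summed over the 41 genes, FPKM was 183 ± 4.77 (SD, n = 3) in the control group and 154 ± 7.40 (SD, n = 3) after depletion. The most abundant genes weigh most in this sum, among them Igfbp2, Igf2 and Spint2 with 6-mouse means of 23.35, 19.22 and 17.07 FPKM. How much of the values of this list came from choroid plexus, and how much from other cells, was not tested.

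**Figure D3:**
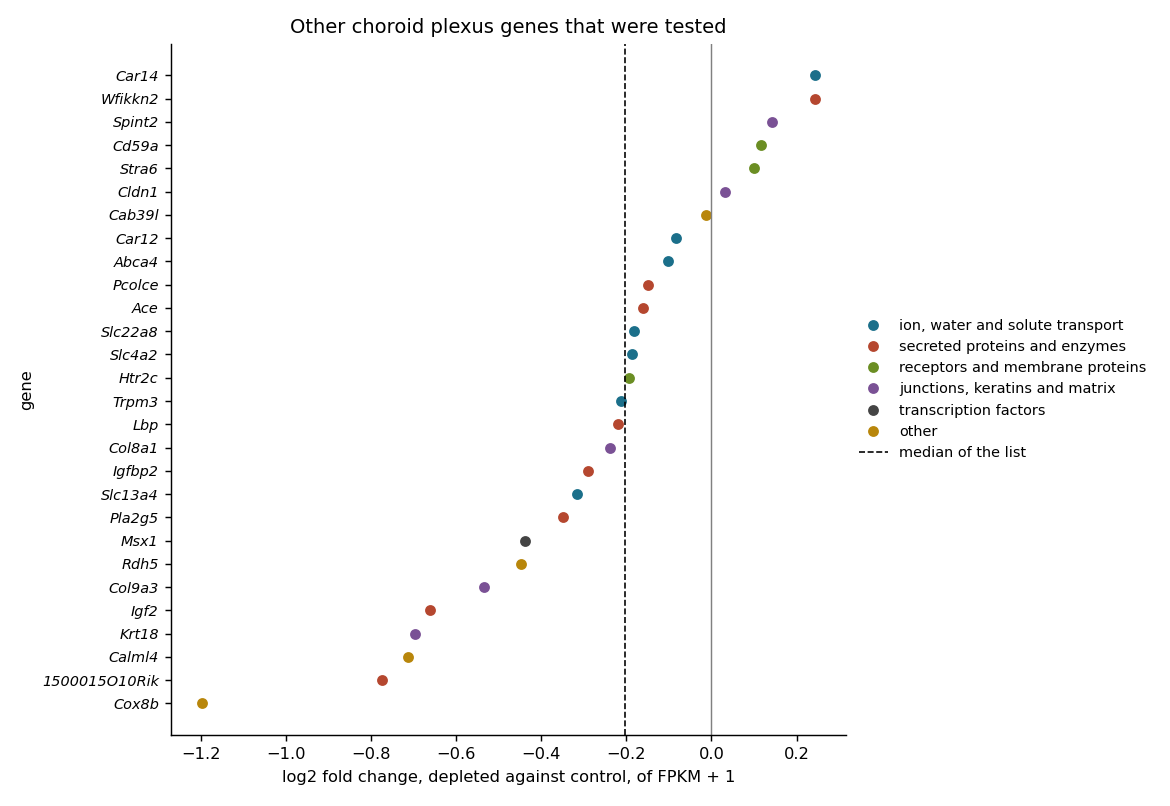
Log2 fold change of the 28 other choroid plexus genes that were tested, depleted against control on log2(FPKM + 1), with 1 point per gene coloured by role and a dashed line at the median of -0.20. Cox8b lies furthest to the left at -1.20, and 6 genes lie to the right of 0.

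Cox8b, a subunit of cytochrome c oxidase, stood out in this list. It was at 1.86, 2.15 and 1.79 FPKM in A1 to A3, at 0.40 FPKM in A4 and 0.49 FPKM in A6, and listed at 0 in A5. By the listed values the groups did not overlap. With A5 taken at 0, the log2 fold change was -1.20 ± 0.19 (SE, n = 3 and 3, adjusted p = 0.225 in limma), and without A5 it was -1.02. The adjusted p of Cox8b ran from 0.095, with array weights, to 0.892 over the alternatives. Its transcript has 360 bases, so that the values of A4 and A6 come to about 2 fragments each, and a count of 0 in A5 allows up to 2.34 FPKM, the level at which 3 fragments would be expected. At the estimated depth, a difference of A5 from the control mice was therefore not detectable in this gene.

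Secreted proteins were among the lower genes. Igf2, an insulin-like growth factor that choroid plexus and meninges release into the fluid, was at 23.5, 23.3 and 24.2 FPKM in control and at 14.6, 17.9 and 11.9 FPKM in A4 to A6. The control mice were within 0.93 FPKM of each other and every depleted mouse was below them (log2 fold change of -0.66, adjusted p = 0.293 in limma). Without A5 the adjusted p was 0.0708, in a range from 0.0708 to 0.892 over the alternatives. Igfbp2, which binds insulin-like growth factors, had means of 25.8 and 20.9 FPKM without overlap (log2 fold change of -0.29, adjusted p = 0.378 in limma). Pla2g5, a secreted phospholipase, had means of 1.31 and 0.813 FPKM, also without overlap (log2 fold change of -0.35, adjusted p = 0.461 in limma). Ecrg4, listed under its older symbol 1500015O10Rik, codes for a secreted peptide precursor and was at 4.34, 5.59 and 4.82 FPKM in control and at 2.11, 4.71 and 1.30 FPKM in A4 to A6. A5 lay within the control range (log2 fold change of -0.78, adjusted p = 0.432 in limma). Wfikkn2, a secreted protease inhibitor that binds GDF8 and GDF11, was the opposite case, with 0.72 to 1.08 FPKM in control and 1.10 to 1.32 FPKM in depleted mice (log2 fold change of 0.24, adjusted p = 0.598 in limma).

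Of the genes of structure, Col9a3, a chain of type IX collagen, had means of 7.36 and 4.78 FPKM (log2 fold change of -0.54, adjusted p = 0.370 in limma). Krt18, a keratin of simple epithelia, was at 0.92, 0.83 and 1.59 FPKM in control and at 0.26, 0.60 and 0.06 FPKM in A4 to A6. Neither gene overlapped between the groups, and the log2 fold change of Krt18 was -0.70 (adjusted p = 0.378 in limma). The values of Krt18 come to about 3.1 fragments in A5 and 1 in A6, and 1 fragment is worth 0.195 FPKM in A5. Krt8, the partner with which Krt18 forms filaments, did not pass the filter and was listed at 0 in each depleted mouse, against 0.41, 0.32 and 0.96 FPKM in control mice. In A5 a count of 0 allows up to 0.43 FPKM of Krt8, and in A4 and A6 up to 0.112 and 0.136 FPKM, so that A4 and A6 were below the control mice and A5 cannot be placed at the estimated depth. Cldn2, a claudin that forms channels for sodium between the cells, was also below the filter, at 0.49, 0.75 and 0.32 FPKM in control and at 0.12, 0.09 and 0.09 FPKM in depleted mice, where 0.09 FPKM in A5 is about 1 fragment. Krt8 and Cldn2 were chosen after their values were seen, as the only genes among the 13 under the filter whose listed values did not overlap. For Krt8 this rests on taking A5 at 0, and for Cldn2 it rests in A5 on about 1 fragment. At the estimated depth 3 fragments of Cldn2 in A5 would be 0.277 FPKM, near the 0.32 FPKM of control mouse A3, so A5 cannot be placed firmly below it. With no filter, 8.2% of all genes had groups that did not overlap, with lower values in depleted mice. Of these 13, 10 had a lower and 3 a higher mean in depleted mice (Slc4a5, F5 and Lmx1a, also named after their values were seen).

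Among the tested genes of transport in this list, Slc13a4, a sulfate transporter, had the lowest log2 fold change, -0.32, with 3.34, 7.41 and 3.23 FPKM in A4 to A6 on each side of the 4.90 to 6.2 FPKM of control mice. Car14, a membrane carbonic anhydrase, had the highest, 0.24, with 12.5 FPKM in A4 against 6.28 to 8.39 FPKM in all other mice. Of the receptors, Htr2c, a serotonin receptor, was at -0.19 (-0.05 without A4) and the complement inhibitor Cd59a at 0.12, with groups that overlapped. Spint2, a protease inhibitor of epithelia, was at 0.14, and the kinase scaffold gene Cab39l at -0.01. Msx1, a homeobox gene, was the single transcription factor of the list that passed the filter, with means of 1.46 and 0.787 FPKM, groups that overlapped and a log2 fold change of -0.44. None of these 7 genes was past an unadjusted p of 0.05. Car14, Cd59a, Spint2 and Cab39l changed sign when 1 mouse was left out.

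Ligands, receptors and enzymes that act with the 10 genes were followed as a list of 42 partners, of which 37 were tested. At an unadjusted p under 0.05, 4 of the 37 were lower (5.74% of all genes tested) and 2 higher (4.79%), and 0 had an adjusted p under 0.1 in limma, with a median log2 fold change of -0.10. For lysophosphatidic acid, the product of autotaxin, the receptor gene Lpar1 had means of 11.9 and 9.50 FPKM (log2 fold change of -0.31, adjusted p = 0.451 in limma). Plpp3, a phosphatase that degrades it and is listed as Ppap2b, had means of 75.3 and 57.2 FPKM (log2 fold change of -0.40, adjusted p = 0.388 in limma), and neither gene overlapped between the groups. For prolactin, the feedback inhibitor Cish was lower, with means of 3.55 and 2.59 FPKM and a log2 fold change of -0.34, and Socs2, another such inhibitor, was higher at 0.34, each without overlap (adjusted p = 0.409 and 0.451 in limma). The ligand Prl itself had a log2 fold change of -2.13, which became 1.28 without A3. Bmp6, a ligand of the BMP family that Sostdc1 binds, was at -0.33 without overlap (adjusted p = 0.451 in limma), and Lrp6, a WNT co-receptor, at -0.09.

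For transthyretin, the thyroid hormone receptor gene Thra was the most abundant partner, at 228 and 240 FPKM, with a log2 fold change of 0.07 that was -0.02 without A4. Fgfr3, the most abundant receptor in the group of klotho, was at -0.19. In salt and water transport, the sodium pump subunit Atp1b1 was at 616.5 and 601.6 FPKM, with a log2 fold change of -0.04. Stk39, a kinase that regulates chloride cotransport, was at 25.0 and 28.7 FPKM without overlap (log2 fold change of 0.19, adjusted p = 0.451 in limma). These genes are widely expressed in brain, and their part in the values of choroid plexus genes was not tested.

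Genes whose pattern over the 6 mice was most like the mean of the 10 genes were ranked by Pearson's r on log2(FPKM + 1), among 1068 genes that spanned at least 1 on that scale. The 6 mice fall into the 2 groups, so r mostly reflects the difference between groups, and it is given with no p-value. It takes values listed at 0 as they are, which those of Cox8b and Gm13308 in A5 and of Myl2 in A5 and A6 need not be, and so measures no likeness beyond the listed values. That mean follows Ttr closely (r = 0.989). The highest r was that of Cox8b, of the list above, at 0.974. Next came Gm13308 at 0.960, a gene with near-identical copies among which reads can be split, then 3110009E18Rik at 0.919, Dleu7 at 0.915 and Myl2 at 0.905. C030023E24Rik was at 0.902, Gja4, a connexin of endothelium, at 0.867, Gm20604 at 0.866, Gm14306 at 0.860 and Sstr4, a somatostatin receptor, at 0.859. Myl2, a myosin light chain, was at 0.46 FPKM in A4 and listed at 0 in A5 and A6, against 0.85 to 1.03 FPKM in control mice, and with a depleted mean of 0.153 FPKM it passed the filter only through its control values. Apart from Cox8b, none of the 10 was in the lists of choroid plexus genes.

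Cells next to the choroid plexus, and regions that border the cortical sample, were read by their markers. Ependymal and ciliated cells, which line the ventricles, had 11 of 12 markers tested, 7 of them lower, with a median log2 fold change of -0.10 (-0.13 to -0.02 with 1 mouse left out) and summed FPKM of 38.1, 29.5 and 41.0 in A1 to A3 and 32.2, 29.9 and 29.2 in A4 to A6. Foxj1, the master regulator of motile cilia, was at 3.37 and 3.43 FPKM (log2 fold change of 0.02), Ccdc153 at -0.11 and Tmem212 at -0.09, and the most abundant marker, Rarres2, at -0.17. Mia was the exception, with 3.93, 3.09 and 9.17 FPKM in control and 0.25, 1.48 and 0.47 FPKM in A4 to A6 (log2 fold change of -1.83, adjusted p = 0.293 in limma). Enkur had the highest log2 fold change of this list, 0.26.

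Meningeal fibroblasts had 15 markers tested, 12 of them lower, with a median of -0.08, which changed sign without A1 or A6. Their summed FPKM, of which Ptgds was the most abundant gene, had means of 1500 for control and 1465 for depleted mice, with SDs of 178 and 294 (n = 3 each). Ptgds was at -0.04, Col1a1 at -0.08, Col1a2 at -0.25, Col3a1 at -0.05, Aldh1a2 at -0.38 and Crabp2 at 0.14 on the log2 scale. Endothelium had a median of 0.09 over 12 markers, from Itm2a, its most abundant gene, at -0.21 to Pecam1 at 0.34, with Cdh5 at -0.09 and Cldn5 at 0.31 without overlap (adjusted p = 0.394 in limma). Mural cells had a median of -0.06 over 9 markers, from Rgs5 at -0.40 to Tagln at 0.23, with Kcnj8 at -0.04, Pdgfrb at -0.33 and Vtn, the most abundant, at -0.37 without overlap.

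Red blood cells had 4 of 8 markers tested and 6 in the table. Their summed FPKM was 87.3, 57.6 and 105 in A1 to A3 and 14.4, 83.8 and 104 in A4 to A6, so that A4 alone was low. Hba-a1 had a log2 fold change of -1.85 (adjusted p = 0.378 in limma, in a range from 0.0535 without A6 to 0.892 over the alternatives). Hba-a2, listed at 0 in all control mice and in A4 and at 65 and 30 FPKM in A5 and A6, had 3.67 (adjusted p = 0.406 in limma, in a range from 0.000895 without A4 to 0.892), and it passed the filter only through its depleted values. Hbb-b1 was at -0.10. Reads can be split between such copies. The part of blood in the values of choroid plexus genes was not tested.

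Oligodendrocytes, which also express Enpp2, had 8 markers tested, all of them lower in mean, with a median of -0.28. Their summed FPKM was 3178, 2955 and 2918 in A1 to A3 and 2579, 2558 and 2629 in A4 to A6, without overlap. Mbp, the most abundant, was at -0.20, Mog at -0.30 (-0.12 without A4), Mobp at -0.20 and Opalin at -0.48 (-0.28 without A4). In 4 of the 8 the unadjusted p was under 0.05 (5.74% of all genes tested), and in 0 the adjusted p was under 0.1 in limma. The part of oligodendrocytes in the values of Enpp2 was not tested.

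**Figure D4:**
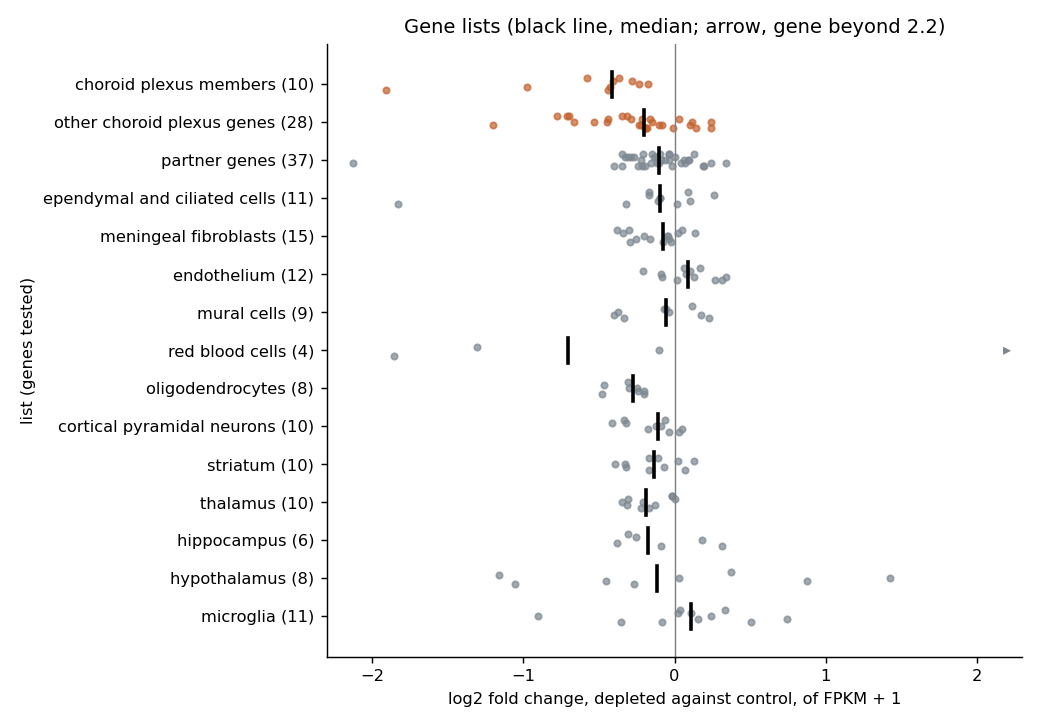
Log2 fold change of every tested gene of each list but the sex-linked genes, depleted against control on log2(FPKM + 1) (horizontal axis), with 1 row per list, the number of genes tested in brackets and a black line at the median. The median is -0.42 for the 10 choroid plexus genes, -0.20 for the other choroid plexus genes and -0.10 for ependymal and ciliated cells, and an arrow marks Hba-a2, which lies beyond the axis.

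Markers of the cortex and of regions around it were also read. Cortical pyramidal neurons had a median of -0.11 over 10 markers, or -0.003 without A4, with Slc17a7 at 0.03, Tbr1 at -0.09, Nrgn, the most abundant, at -0.33, Fezf2 at 0.05 and Lamp5 at -0.41. Striatum had a median of -0.14 over 10 markers, or 0.06 without A4, with Ppp1r1b, the most abundant, at 0.13, Drd1a at 0.07, Drd2 at -0.32 and Adora2a at -0.39 (-0.12 without A4). Thalamus had a median of -0.19 over 10 markers, or -0.07 without A4, with Slc17a6, the most abundant, at -0.31. Tcf7l2 was at -0.22, Prkcd at -0.32, Lef1 at -0.21 (up to 0.084 with 1 mouse left out), Ramp3 at -0.35 and Synpo2 at 0.003. Summed FPKM of the thalamic list was 102, 94.4 and 86.3 in A1 to A3 and 68.4, 81.6 and 84.4 in A4 to A6. Hippocampus had a median of -0.17 over 6 markers, with Wfs1, the most abundant, at 0.31 (0.01 without A4, which had 74.0 FPKM against 35.8 to 42.0 FPKM in the other mice), Prox1 at -0.09, Dsp at 0.18 and C1ql2 at -0.38.

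Hypothalamus had a median of -0.12 over 8 markers, which became 0.47 without A3, the mouse with pituitary hormones. Oxt, the most abundant of this list, was at 0.38 and Pmch at -0.45. Hcrt was at 19.7, 18.6 and 28.4 FPKM in control and at 9.13, 8.12 and 13.3 FPKM in A4 to A6 (log2 fold change of -1.06, adjusted p = 0.293 in limma), and Agrp at 0 to 0.24 FPKM in control and 1.26 to 3.24 FPKM in depleted mice (1.42, adjusted p = 0.270 in limma). Agrp had a control mean of 0.147 FPKM and passed the filter only through its depleted values. Without A5 the adjusted p of Agrp was 0.0708, in a range from 0.0708 to 0.892 over the alternatives. Both genes had groups that did not overlap, in opposite directions, whereas Pomc was at -1.16, or 1.04 without A3. How much of a ventricle, or of the tissue beside it, each sample held was not measured, and its part in the values of choroid plexus genes was not tested.

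Microglia, the cells that were depleted and that the paper describes as repopulated by day 10, had a median of 0.11 over 11 markers, or -0.03 without A4. P2ry12 was at -0.35, Tmem119 at 0.16, Fcrls at -0.90 and Aif1 at 0.74. Aif1 had an adjusted p of 0.378 in limma, and of 0.0411 without A5, the lowest in a range up to 0.892.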

How the data were processed

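RNA of the cortex was compared between 3 control mice and 3 depleted mice, with 1 library per mouse. The authors made poly(A) libraries for paired-end sequencing. The submitters' processing notes name TopHat for alignment, RSEM for quantification, DESeq for testing and mm9 as the build, without versions; the values were normalized with TMM. Raw counts were not used here. The deposited values are FPKM, rounded to 2 decimals.

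On log2(FPKM + 1), limma 3.58.1 (lmFit, then eBayes with trend; R 4.3.3) was fitted to the 14385 genes that averaged 0.5 FPKM or more. P-values were adjusted by Benjamini-Hochberg, and 0.1 was the threshold. The fit was tried on simulated data before use. Members and gene lists were chosen with earlier results of these data known. Members have no p-value. Genes were named by rule. These were all members; of the other choroid plexus genes, those at an unadjusted p under 0.05 and the highest and lowest log2 fold change of each role; of the partners, those at an unadjusted p under 0.05 and the most abundant of each role; of each further list, the most abundant gene, the highest and lowest log2 fold change and the first 3 listed; and the 10 genes most like the members. Not every gene that the rule names is reported. Gh, Krt8 and Cldn2 were added after their values were seen.

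Fragments per mouse were estimated from the spacing of low values in 1813 genes with 1 annotated transcript of 400 to 1500 bases (GENCODE M21, GRCm38). Fragments behind single genes used the longest coding transcript and are approximate. Promoter sequences are from RefSeq (GRCm38.p6). Alternative settings changed the pseudocount (0.1), the filter (none, or 1 FPKM), the scaling (equal sums, median of ratios, quantiles), the fit (array weights, or eBayes with no trend) and the threshold (0.05), or left out each mouse in turn. Leaving out A3 and A4 together was added after the data were seen. Python 3.11.15, numpy 2.4.6, pandas 2.3.3 and matplotlib 3.10.9 were used.

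Limits: with 3 mice per group, small or uneven differences may be missed. How large a difference the test can find is not reported here, and no member was tested. The authors describe the tissue as frontal cortex. Litter, batch and dissection are not labelled by mouse, so their part was not tested. A5 has few fragments, so low genes in A5 rest on single fragments. FPKM with 2 decimals cannot be turned back into exact counts. A3 and A4 stand apart in pituitary and sex-linked genes, and whether tissue or RNA was mixed cannot be told from the files. Cell numbers were not measured.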

Additional observations from a re-analysis of the deposited data

How the results depend on the processing

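The 10 choroid plexus genes had a lower mean in depleted mice under each alternative that kept them, which is 15 for 7 genes and 14 for Prlr, Aqp1 and Sostdc1, dropped at a minimum mean of 1 FPKM. Their median log2 fold change of -0.42 was -0.666 with a pseudocount of 0.1, which by construction widens differences of low genes, and ran from -0.52 to -0.308 with 1 mouse left out. With that pseudocount Folr1 was at -2.029, past the log2 fold change of Ttr at -1.925, the log2 fold change of Kcnj13 was -0.713, and Aqp1 was at -1.294, Prlr at -0.831, Otx2 at -0.62, Kl at -0.423 and Sostdc1 at -0.357. Groups that did not overlap were found in 3 of the genes (9.38% of all genes tested), in 3 to 8 with 1 mouse left out (12.5% to 16.7%), in 8 without A3 and A4 (21.1%), and in 1 at a minimum mean of 1 FPKM (9.62%), where only 7 of the genes are kept. As the genes were chosen for being lower, nothing is read from these counts. Leaving out mice makes separation easier by construction.

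Over all genes, 4 passed an adjusted p of 0.1 in limma and 4 passed 0.05. The number past 0.1 was 2 with eBayes without trend, 20 with array weights, 7 without A3 and A4, and 2 to 29 with 1 mouse left out; the cause was not tested. For the other choroid plexus genes the median ran from -0.256 to -0.145 with 1 mouse left out. In the same fits 5 to 9 of them were lower at an unadjusted p under 0.05. With a pseudocount of 0.1 the log2 fold change was -2.714 for Cox8b, -1.771 for Krt18, -0.752 for Msx1, -0.631 for Pla2g5 and 0.441 for Wfikkn2. No paired analysis was possible because the labels give each mouse its own number.

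With 1 mouse left out, medians of further lists ran from -0.133 to -0.017 (ependymal cells), -0.15 to -0.003 (cortical neurons), -0.085 to -0.01 (mural cells), -0.382 to -0.242 (oligodendrocytes), -0.275 to -0.074 (thalamus), -1.073 to -0.028 (red blood cells), 0.036 to 0.139 (endothelium), -0.182 to 0.028 (meningeal fibroblasts), -0.253 to 0.059 (striatum), -0.325 to -0.09 (hippocampus), -0.384 to 0.47 (hypothalamus), -0.026 to 0.198 (microglia) and -0.169 to -0.035 (partners). Without A3 and A4 they were -0.195 (meningeal fibroblasts), -0.116 (mural cells), -0.011 (cortical neurons), 0.19 (endothelium), 0.041 (red blood cells), 0.079 (striatum), 0.592 (hypothalamus), -0.01 (microglia), -0.226 (sex-linked genes) and -0.034 (partners). With no filter hippocampus was at -0.26, red blood cells at -0.156, hypothalamus at -0.066 and sex-linked genes at 0.35. With a pseudocount of 0.1 red blood cells were at -1.158, ependymal cells at -0.161, meningeal fibroblasts at -0.12, mural cells at -0.086 and sex-linked genes at 1.239. With array weights meningeal fibroblasts were at -0.153, cortical neurons and striatum at -0.025 and microglia at 0.008. At a minimum mean of 1 FPKM meningeal fibroblasts were at -0.119.

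Single genes outside the members whose sign differed from the main fit when 1 mouse was left out were mostly near 0, and their log2 fold changes then ran as follows: Car14 -0.0 to 0.387; Cd59a -0.099 to 0.23; Spint2 -0.099 to 0.285; Cab39l -0.104 to 0.084; Thra -0.02 to 0.116; Prl -4.518 to 1.278; Foxj1 -0.059 to 0.101; Ccdc153 -0.228 to 0.109; Tmem212 -0.27 to 0.017; Ptgds -0.164 to 0.13; Crabp2 -0.165 to 0.371; Col1a1 -0.215 to 0.072; Col1a2 -0.436 to 0.028; Col3a1 -0.192 to 0.085; Cdh5 -0.151 to 0.034; Tagln -0.036 to 0.368; Kcnj8 -0.156 to 0.054; Hbb-b1 -0.959 to 1.018; Fezf2 -0.005 to 0.107; Slc17a7 -0.029 to 0.09; Tbr1 -0.252 to 0.08; Drd1a -0.015 to 0.185; Drd2 -0.557 to 0.058; Synpo2 -0.021 to 0.047; Lef1 -0.391 to 0.084; Oxt -0.063 to 0.71; Pomc -2.568 to 1.038; Tmem119 -0.039 to 0.304; Xist -0.337 to 1.19.

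Other genes outside the members kept their sign with 1 mouse left out, but at the smaller end were more than 1.5 times closer to 0 than in the main fit: Slc13a4 -0.640 to -0.144; 1500015O10Rik -1.140 to -0.484; Htr2c -0.277 to -0.054; Fgfr3 -0.290 to -0.096; Socs2 0.228 to 0.476; Lrp6 -0.174 to -0.035; Lpar1 -0.414 to -0.196; Ppap2b -0.510 to -0.264; Atp1b1 -0.075 to -0.002; Rarres2 -0.322 to -0.031; Enkur 0.062 to 0.570; Aldh1a2 -0.559 to -0.246; Itm2a -0.324 to -0.054; Rgs5 -0.536 to -0.177; Mobp -0.252 to -0.100; Opalin -0.577 to -0.282; Mog -0.460 to -0.122; Lamp5 -0.506 to -0.233; Ppp1r1b 0.058 to 0.2; Adora2a -0.545 to -0.119; Slc17a6 -0.401 to -0.134; Tcf7l2 -0.356 to -0.127; Prkcd -0.428 to -0.178; Wfs1 0.013 to 0.495; C1ql2 -0.538 to -0.152; Prox1 -0.131 to -0.031; Dsp 0.101 to 0.270; Pmch -0.614 to -0.282. Mbp, at -0.201, was at -0.0 with quantile normalization. That method gives a gene of the same rank in every library the same value, which can set this outcome for so abundant a gene, and nothing is read from it.

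Without A3 and A4 the sign differed for Car14 (-0.081), Cab39l (0.062), Thra (-0.002), Prl (1.543), Tmem212 (0.127), Crabp2 (-0.272), Cdh5 (0.054), Tagln (-0.131), Hbb-b1 (1.526), Tbr1 (0.039), Drd2 (0.204), Synpo2 (-0.021), Lef1 (0.055), Pomc (1.224), Tmem119 (-0.112), Xist (-0.226). With array weights the log2 fold change of Crabp2 was -0.019, and the sign also differed for Cab39l (0.031), Hbb-b1 (0.569) and Synpo2 (-0.007). With quantile normalization it differed for Ptgds (0.044), Slc17a7 (-0.05), Synpo2 (-0.01). The cause of these differences was not tested.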
